A study of Mus musculus with 4 samples.

Results

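The genes described here encode cullins and families of proteins of which some, but not all, members carry substrates to one of them. They were taken by symbol as the genes named Cul, Klhl or Kctd followed by a digit, together with Ipp, and each was represented by its brightest probe set, judged by the mean over all arrays. This gave 65 genes of 19938 with a single symbol on the array, made up of 8 cullins, 36 Klhl genes, 20 Kctd genes and Ipp. Only Klhl31 and Klhl32 had more than 1 probe set. The set was chosen by name after earlier results of the same arrays had shown Ipp and Klhl12 among the mRNAs with the largest difference between RBP and IgG arrays, so the values of these 2 genes are given as a description without a test.

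Each array held RNA that had been immunoprecipitated from lysed early erythroid progenitors of C57BL/6 mouse fetal liver at E14.5, with no genetic change or drug in any group. For 2 arrays the antibody was specific to a particular RNA-binding protein (RBP), and for 2 arrays it was control rabbit IgG. The protein is not named in the labels and is taken to be ZFP36L2, a tristetraprolin relative that binds AU-rich stretches of mRNA, from knowledge of the published study. The cells had lost lineage-marked, Sca-1, CD16/32, CD41 and CD34 cells by magnetic depletion and were then sorted for c-Kit and low CD71. Whether replicate arrays represent separate preparations of cells is not stated in the labels, so p-values reflect only how far these particular arrays spread, and that spread may be technical. Each array pools many cells, so a transcript present in more cells and a transcript with more copies per cell cannot be told apart, and neither can be separated from how well it was recovered.

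Cullins are the scaffolds of the largest family of ubiquitin ligases. A cullin holds a RING protein, which brings the ubiquitin-loaded enzyme, at one end and a substrate adaptor at the other, and it is switched on by attachment of the ubiquitin-like protein NEDD8. CUL3 differs from its relatives in that a single protein with a BTB domain binds it directly and also binds the substrate. In the KLHL proteins the BTB domain is followed by a BACK domain and kelch repeats, which form a propeller that grips the substrate, whereas KCTD proteins have a related but short BTB domain and no kelch repeats. In red cell formation these ligases are known above all through CUL2, which with the von Hippel-Lindau protein degrades hypoxia-inducible factors, and through CUL5, which SOCS proteins recruit to cytokine receptor signalling.

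All levels below are log2 values, and differences are log2 RBP minus IgG with the standard error (SE) from limma, a linear model that shares variance across genes. A gene was called when limma's p-value, adjusted over all 19938 genes by Benjamini-Hochberg, was under 0.05. The arrays had median probe set levels of 5.57 and 5.62 with the RBP antibody and 5.85 and 5.93 with IgG, with a wider interquartile range with the RBP antibody (3.73 and 3.61, against 2.91 and 2.87). The number of arrays limits the precision, and an exact permutation test of 2 arrays against 2 cannot give a p under 0.333. All 8 markers of erythroid progenitors that were measured, among them Kit and Gata1, lay above the background level, set here at 5.36, below which lay 95% of the mean levels of 1240 chemosensory receptor genes. Their summed level was 13.46 and 13.64 on the RBP arrays and 12.77 and 13.02 on the IgG arrays. The summed levels of the hepatocyte (8.39 to 9.04 against 8.48 to 9.10), macrophage (9.10 to 9.98 against 9.38 to 9.74), granulocyte and mast cell (11.05 to 11.96 against 11.31 to 12.37), lymphoid (7.52 to 8.22 against 7.56 to 8.61) and endothelial and stromal (8.67 to 8.99 against 8.68 to 8.75) markers overlapped between RBP and IgG arrays. Those of 4 megakaryocyte markers (8.73 and 8.80 against 8.22 and 8.44) and of 4 later erythroblast markers (8.35 and 8.95 against 7.70 and 8.08) did not overlap. By limma 4 of the 8 erythroid progenitor markers, 1 of 4 later erythroblast markers (Epb42) and 1 of 4 megakaryocyte markers (Gp9) were higher, against 23.8% of all genes. The erythroid progenitor markers were bright, and 56.4% of all genes at mean levels of 8 to 9 and 54.1% above 9 were higher. Lower were 2 of 7 macrophage and 1 of 5 granulocyte and mast cell markers, against 6.54% of all genes. Each of these other lists held differences of both signs. They ran from -0.37 to 1.38 (later erythroblast), -0.43 to 0.82 (megakaryocyte), -1.59 to 1.12 (macrophage) and -1.44 to 0.06 (granulocyte and mast cell). The part of these cell types in the results below was not tested.

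Many of these mRNAs, including those of most cullins, gave higher log2 levels with the RBP antibody than with IgG under the scaling of the deposited values. Levels depend on that scaling, so the amount of each mRNA recovered was not measured. Of the 65 genes, 28 were called higher and 2 lower in the RBP immunoprecipitates, where 23.8% of all genes were higher and 6.54% lower. Without Ipp and Klhl12 the count was 26 higher of 63, or 41.3%. Among cullins 6 of 8 were higher and 0 lower. Among Klhl genes 13 of 36 were higher and 2 lower, or 12 of 35 higher (34.3%) without Klhl12. Among Kctd genes 8 of 20 were higher and none was lower. The differences had a median of 1.14 for cullins, 0.27 for Klhl genes and 0.25 for Kctd genes, against -0.02 for all genes. No test of one class against another was made. The counts depended on the scaling. Without Ipp and Klhl12, 33 of 63 genes were higher after centring on the chemosensory receptor genes and 15 after quantile normalization. With the trend of the difference on level removed there were 6. For cullins the counts in these 3 settings were 7, 4 and 2 of 8.

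**Figure D1:**
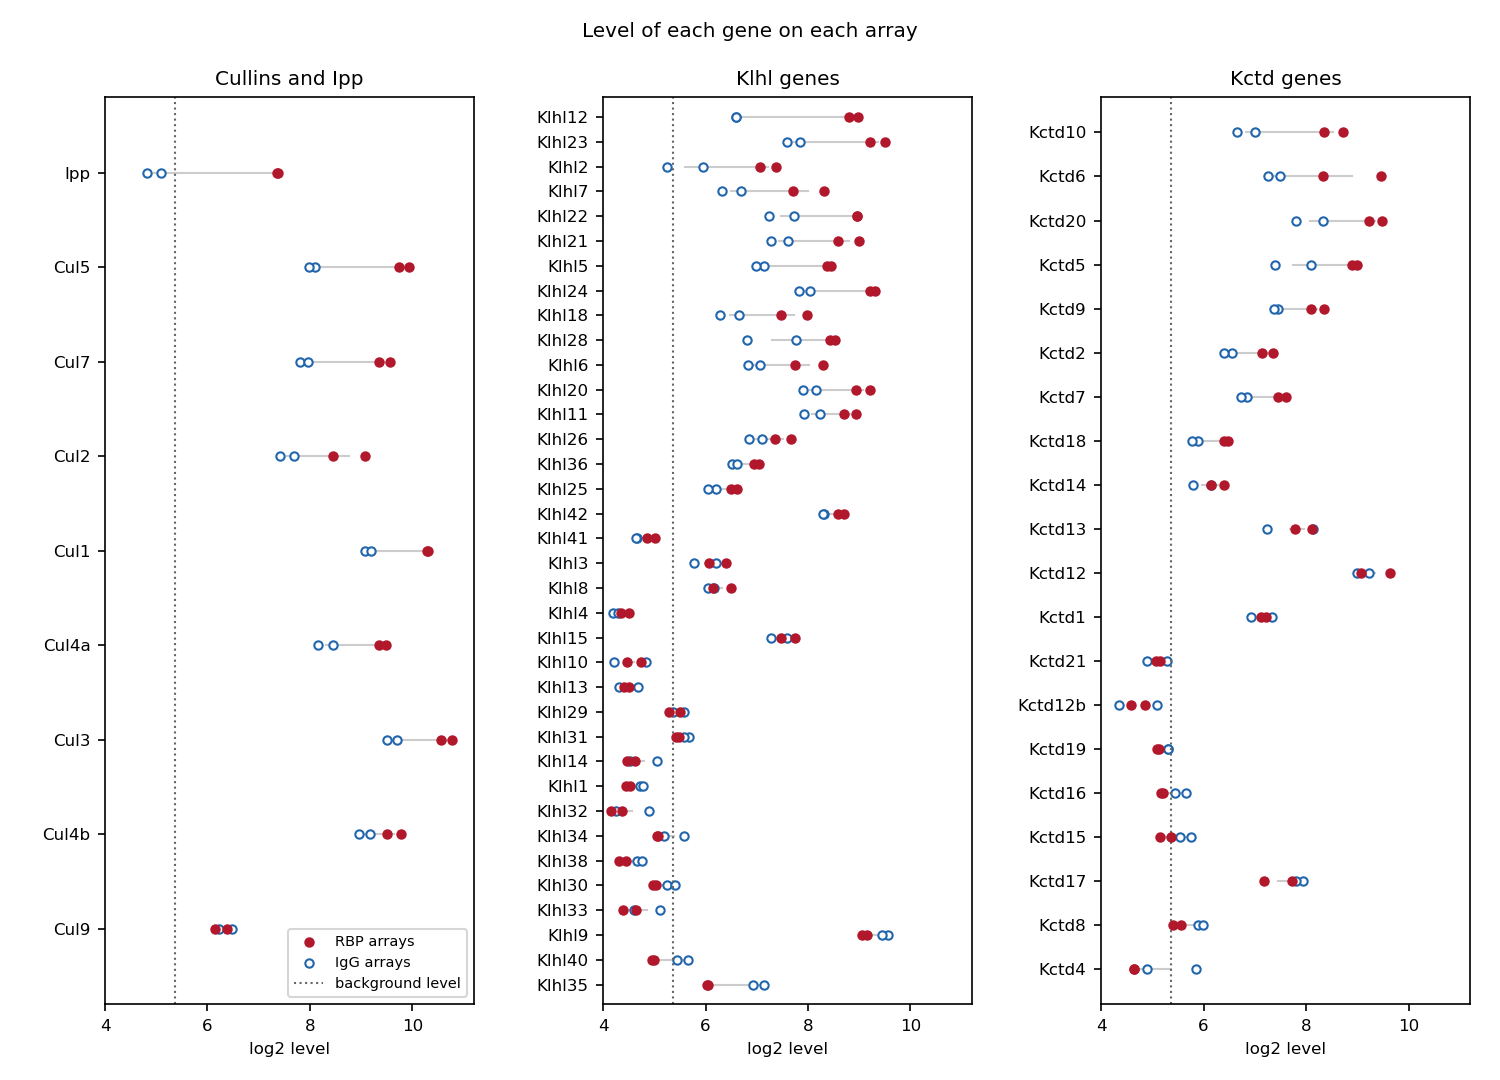
Log2 level of each gene (x axis) on the 2 RBP arrays (filled red) and the 2 IgG arrays (open blue), with a grey line joining the group means and a dotted line at the background level of 5.36. Genes run down the page from the largest to the smallest difference within each class. The RBP arrays lie to the right of the IgG arrays for 7 of the 8 cullins, against 37.4% of all genes and 7048 of the 12828 above background.

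Both arrays of a group lay on the same side of both arrays of the other for most of the genes. The RBP arrays were above the IgG arrays for 36 genes and below them for 14, against 37.4% and 36.2% of all genes. By a rule of at least 2-fold and no overlap, which uses no variance, 23 genes were higher and 0 lower, against 13.5% and 1.23% of all genes. The 23 comprised 6 cullins, Ipp, 12 Klhl genes and 4 Kctd genes, or 21 of 63 without Ipp and Klhl12. The counts by limma were lower when an RBP array was left out. The median difference of the 65 genes was not, at 0.37 without RBP array 1 and 0.45 without RBP array 2, against 0.33 with all arrays. Leaving out RBP array 1 gave 15 higher and 0 lower, leaving out RBP array 2 gave 18 and 0, and leaving out an IgG array gave 29 and 3 (array 1) or 28 and 4 (array 2), and Ipp and Klhl12 add 2 to each count of higher genes. Over all genes, the calls were 1724 higher and 99 lower without RBP array 1, and 2058 and 151 without RBP array 2.

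Positive differences were more frequent among bright members than among dim ones, as among all genes on these arrays, with exceptions such as Klhl9 and Kctd17, which are bright and had negative differences. Of the 65 genes 49 had a mean level above background, and they held the 28 called higher (57.1%) and 1 called lower, against 36.5% higher and 6.54% lower among all 12828 genes above background. Ipp passed the background level only through its RBP arrays and so had to differ, and without Ipp and Klhl12 the count was 26 of 47 (55.3%), which is given as a description. Of the 16 genes at or below background, 0 were called higher by limma and 1 lower, Klhl40, near the 0.83% higher and 6.54% lower among the 7110 genes of that level range. At mean levels of 8 to 9, 13 of 14 of the genes were higher with a median difference of 1.30, where 56.4% of all genes at that level were higher with a median of 0.78. At levels of 7 to 8 the count was 9 of 14 with a median of 0.94, where 47.1% of all genes were higher with a median of 0.66. At levels of 6 to 7 it was 4 of 11 with a median of 0.42, where 23.4% were higher with a median of 0.16. Above 9 it was 2 of 5 with a median of 0.58, where 54.1% of all genes were higher with a median of 0.68. Ipp is among the 4 at levels of 6 to 7 and Klhl12 among the 9 at levels of 7 to 8, and without them the counts were 3 of 10 and 8 of 13. The medians given at these 2 levels include Ipp and Klhl12, which led to the choice of the set.

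Subtracting the trend of the difference on level left fewer calls in every class that had been called higher. With this trend removed, 8 of the 65 genes were higher and 3 lower, against 5.63% and 5.09% of all genes. The 8 were Cul5, Cul7, Klhl23, Klhl2, Klhl5 and Kctd10, with Ipp and Klhl12 counted as a description only. The 3 were Klhl9, Klhl35 and Kctd17. Without Ipp and Klhl12, which led to the choice of the set, 6 of 63 genes were higher (9.52%). The median difference was then 0.50 for cullins, 0.18 for Klhl genes and 0.18 for Kctd genes, with 0.00 for all genes. Class and level ran together on these arrays, with a median mean level of 8.90 for cullins, 6.47 for Klhl genes and 7.01 for Kctd genes.

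**Figure D2:**
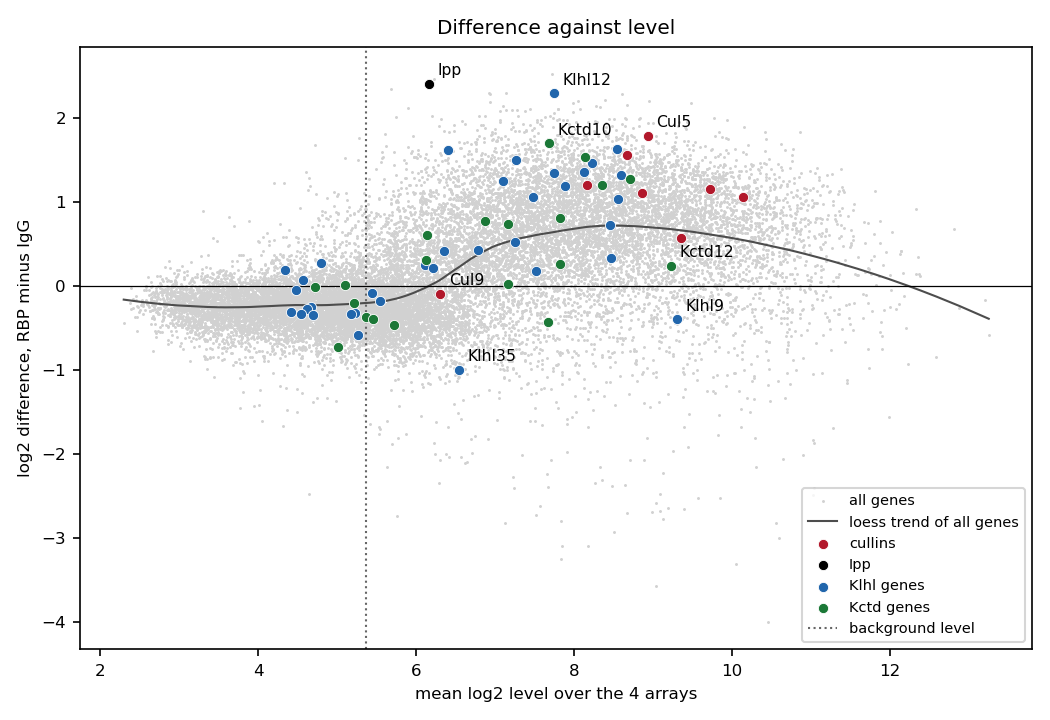
Log2 difference, RBP minus IgG (y axis), against the mean log2 level over the 4 arrays (x axis) for all 19938 genes (grey), with cullins in red, Klhl genes in blue, Kctd genes in green and Ipp in black. The curve is the loess trend of all genes, the dotted line the background level, and 13 of the 14 members at mean levels of 8 to 9 were called higher.

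Among the cullins, the scaffolds of the elongin-linked, SKP1-linked, DDB1-linked and BTB-linked ligases were all represented among the called genes. The median mean level of cullins was 8.90, and 56.4% of all genes at levels of 8 to 9 and 54.1% above 9 were higher. With the level trend removed only Cul5 and Cul7 kept their calls, so no DDB1-linked or BTB-linked scaffold remained. Cul5, the scaffold that SOCS-box proteins join through elongins B and C, had levels of 9.73 and 9.94 on the RBP arrays, against 8.10 and 7.98 on the IgG arrays, a difference of 1.79 ± 0.16 (limma, adjusted p = 0.00558). Cul7, which pairs with the F-box protein FBXW8 and is mutated in 3M syndrome of short stature, had 9.56 and 9.34 on the RBP arrays, against 7.82 and 7.96 on the IgG arrays, a difference of 1.56 ± 0.16 (limma, adjusted p = 0.00558). These are 3.47-fold and 2.96-fold, and in both genes the gap between groups was several times that between arrays of a group.

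Cul2, the scaffold of the von Hippel-Lindau ligase, had 8.44 and 9.08 on the RBP arrays, against 7.69 and 7.42 on the IgG arrays, a difference of 1.20 ± 0.25 (limma, adjusted p = 0.0179). Its RBP arrays differed by more than those of any other cullin, and without RBP array 2 it differed by 0.88 and lost its call. The call of Cul2 was also lost under quantile normalization (0.73, limma, adjusted p = 0.123) and with the level trend removed (0.49, limma, adjusted p = 0.255). Cul1, the scaffold of the SCF ligases that use SKP1 and F-box proteins, had 10.31 and 10.29 on the RBP arrays, against 9.07 and 9.20 on the IgG arrays, a difference of 1.16 ± 0.14 (limma, adjusted p = 0.00599). Cul3, the partner of the BTB adaptors, had 10.56 and 10.78 on the RBP arrays, against 9.50 and 9.70 on the IgG arrays, a difference of 1.07 ± 0.16 (limma, adjusted p = 0.00843). The arrays of each group were close together for Cul1 and Cul3, with no overlap, though Cul3 lost its call without RBP array 2 (difference 0.96, limma, adjusted p = 0.0663).

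The paralogs Cul4a and Cul4b, which both bind substrates through DDB1, gave unequal values. Cul4a had 9.47 and 9.36 on the RBP arrays, against 8.16 and 8.45 on the IgG arrays, a difference of 1.11 ± 0.17 (limma, adjusted p = 0.00792). Cul4b had 9.51 and 9.77 on the RBP arrays, against 9.17 and 8.95 on the IgG arrays, a difference of 0.58 ± 0.17 that did not pass (limma, adjusted p = 0.0521). The groups did not overlap for either gene, and whether the 2 differences themselves differ was not tested. Cul4a lost its call without RBP array 1 (difference 1.05). Its call was also lost under quantile normalization (0.58, limma, adjusted p = 0.0828) and with the level trend removed (0.40, limma, adjusted p = 0.182). Cul4b, by contrast, was called without IgG array 1 (0.69) and after centring on the chemosensory genes. Cul4b was also called when only genes above background were tested (limma, adjusted p = 0.0462) and with replicate number in the model (limma, adjusted p = 0.0259). Under quantile normalization Cul4b differed by 0.08 (limma, adjusted p = 0.819), and with the level trend removed its sign turned (-0.09, limma, adjusted p = 0.790). Cul9, a large cytoplasmic cullin that binds p53, had 6.38 and 6.14 on the RBP arrays and 6.22 and 6.48 on the IgG arrays. It was the only cullin whose groups overlapped, its difference was -0.09 ± 0.17 (limma, adjusted p = 0.710), and the sign turned under quantile normalization, under centring and without RBP array 2 or IgG array 2.

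Ipp and Klhl12 had the largest differences of the 65 genes, ranking 3 and 6 among all 19938 genes by signed difference. Ipp, a BTB-kelch protein that binds actin and was first found through a transcript driven by a mobile element, had 7.38 and 7.35 on the RBP arrays, against 4.82 and 5.09 on the IgG arrays, a difference of 2.41 ± 0.16. Both IgG values lay below the background level, so the size of this difference is uncertain. Klhl12, the adaptor with which CUL3 marks the coat protein SEC31 and enlarges COPII vesicles, had 8.80 and 8.98 on the RBP arrays, against 6.59 and 6.59 on the IgG arrays, a difference of 2.30 ± 0.15, or 4.91-fold. Without each array in turn Ipp differed by 2.28 to 2.54 and Klhl12 by 2.21 to 2.39.

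Of the other Klhl genes, 12 were higher, and 11 of these by at least 2-fold. Klhl23 had 9.21 and 9.51 on the RBP arrays, against 7.59 and 7.85 on the IgG arrays, a difference of 1.64 ± 0.18 (limma, adjusted p = 0.00560). Klhl2, an actin-binding adaptor that also targets WNK kinases, had 7.37 and 7.07 on the RBP arrays, against 5.24 and 5.95 on the IgG arrays, a difference of 1.62 ± 0.27 (limma, adjusted p = 0.00973). One IgG value of Klhl2 lay below background, and its IgG arrays were further apart than its RBP arrays. Klhl7, which is mutated in a form of retinitis pigmentosa, had 7.71 and 8.31 on the RBP arrays, against 6.31 and 6.69 on the IgG arrays, a difference of 1.51 ± 0.25 (limma, adjusted p = 0.0103). Klhl5 had 8.44 and 8.38 on the RBP arrays, against 7.14 and 6.99 on the IgG arrays, a difference of 1.34 ± 0.15 (limma, adjusted p = 0.00560). Klhl24, whose protein controls the turnover of keratin 14 in skin, had 9.20 and 9.30 on the RBP arrays, against 7.82 and 8.04 on the IgG arrays, a difference of 1.32 ± 0.16 (limma, adjusted p = 0.00570). Klhl23, Klhl2, Klhl7, Klhl5 and Klhl24 were called without any 1 of the arrays.

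The Klhl adaptors known from cell division were called in part only. Klhl22, which removes the kinase PLK1 from kinetochores, had 8.95 and 8.96 on the RBP arrays, against 7.24 and 7.73 on the IgG arrays, a difference of 1.47 ± 0.20 (limma, adjusted p = 0.00670). Klhl21, which directs Aurora B to the spindle midzone, had 9.0 and 8.59 on the RBP arrays, against 7.27 and 7.61 on the IgG arrays, a difference of 1.36 ± 0.21 (limma, adjusted p = 0.00859). Klhl18, linked to Aurora A at mitotic entry, had 7.97 and 7.47 on the RBP arrays, against 6.66 and 6.28 on the IgG arrays, a difference of 1.25 ± 0.23 (limma, adjusted p = 0.0135). Klhl21 and Klhl18 lost their calls without RBP array 1 (limma, adjusted p = 0.0534 and 0.0772). Klhl9, which acts with KLHL13 to remove Aurora B from mitotic chromosomes, ran the other way, with 9.06 and 9.16 on the RBP arrays, against 9.56 and 9.44 on the IgG arrays. Its groups did not overlap, and its difference of -0.39 ± 0.15 did not pass (limma, adjusted p = 0.0953), but it was called lower with quantile normalization and with the level trend removed (-1.06, limma, adjusted p = 0.0208). After centring on the chemosensory genes it was -0.08 (limma, adjusted p = 0.738). Klhl13 itself lay below background on all arrays (4.51 and 4.40 on the RBP arrays and 4.68 and 4.31 on the IgG arrays).

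The remaining Klhl genes called higher had smaller differences or wider spread. Klhl28 had 8.52 and 8.43 on the RBP arrays, against 7.77 and 6.81 on the IgG arrays, and its difference of 1.19 ± 0.32 passed (limma, adjusted p = 0.0386). It was 1.67 without IgG array 1 and 0.71 without IgG array 2. Klhl6, known from B cell receptor signalling, differed by 1.07 ± 0.22 (limma, adjusted p = 0.0187), with 8.28 and 7.75 on the RBP arrays, against 6.83 and 7.07 on the IgG arrays. Klhl20, which targets the death-associated kinase DAPK1 and the nuclear body protein PML, differed by 1.05 ± 0.18 (limma, adjusted p = 0.0108), with 9.21 and 8.94 on the RBP arrays, against 8.16 and 7.90 on the IgG arrays. Klhl11 differed by 0.74 ± 0.18 (limma, adjusted p = 0.0298), with 8.93 and 8.70 on the RBP arrays, against 8.23 and 7.93 on the IgG arrays. All 4 lost their calls without RBP array 1 (limma, adjusted p up to 0.220 without either RBP array), and Klhl28 and Klhl11 also without RBP array 2. Klhl6 and Klhl24 are neighbours in the RefSeq gene order, and both were called. Klhl10, an adaptor of developing sperm that neighbours Klhl11, lay below background at 4.75 and 4.47 on the RBP arrays and 4.85 and 4.22 on the IgG arrays.

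Klhl35 and Klhl40 were the 2 genes called lower. Klhl35 had 6.05 and 6.04 on the RBP arrays, against 6.93 and 7.14 on the IgG arrays, a difference of -0.99 ± 0.15 (limma, adjusted p = 0.00845). It was the largest downward difference of the set, and it lost its call without RBP array 1 (-1.0, limma, adjusted p = 0.0654) or RBP array 2 (-0.99, limma, adjusted p = 0.0623) at nearly the same size. Klhl40, a muscle protein that stabilises nebulin in the thin filament, had 5.0 and 4.95 on the RBP arrays, against 5.66 and 5.45 on the IgG arrays, a difference of -0.58 ± 0.15 (limma, adjusted p = 0.0383). Its levels straddle background, and the call was lost without RBP array 1, RBP array 2 or IgG array 1 (limma, adjusted p from 0.0552 to 0.236) and under both scaling alternatives.

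A further 10 Klhl genes above background were not called. Klhl26 (0.53 ± 0.18), Klhl36 (0.43 ± 0.15), Klhl25 (0.42 ± 0.15) and Klhl42 (0.33 ± 0.14) had RBP arrays above both IgG arrays, with limma's adjusted p of 0.0782, 0.0759, 0.0824 and 0.132. KLHL25 targets the translation repressor 4E-BP1 and KLHL42 the microtubule-severing protein katanin. Klhl3 (0.25 ± 0.21), whose protein degrades WNK kinases in the kidney, Klhl8 (0.21 ± 0.18) and Klhl15 (0.18 ± 0.19), which targets a regulatory subunit of the phosphatase PP2A, overlapped between groups, as did Klhl29 (-0.08 ± 0.17). With Klhl31 (-0.17 ± 0.14) and Klhl9 they make up the 10. At or below background were 12 Klhl genes, with differences from -0.58 to 0.28, among them the muscle gene Klhl41 (0.28 ± 0.15, limma, adjusted p = 0.193) at the upper end. The second probe sets of Klhl31 and Klhl32 gave -0.68 and -0.40, against -0.17 and -0.31 for the ones used.

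Kctd genes were called higher in 8 of 20 cases, 4 of them by at least 2-fold. Kctd10, a RhoA-targeting CUL3 adaptor, had 8.71 and 8.36 on the RBP arrays, against 7.01 and 6.65 on the IgG arrays, a difference of 1.70 ± 0.20 (limma, adjusted p = 0.00570), and was called without any 1 of the arrays. Kctd13, its close relative, had 8.11 and 7.79 on the RBP arrays and 8.14 and 7.24 on the IgG arrays, which overlapped, with a difference of 0.26 ± 0.32 (limma, adjusted p = 0.540). Its IgG arrays were far apart, and Kctd13 was called at 0.71 without IgG array 1 (limma, adjusted p = 0.0447) and was -0.19 without IgG array 2. Kctd6, which with CUL3 acts on the deacetylase HDAC1 and on ankyrin, had 8.34 and 9.47 on the RBP arrays, against 7.49 and 7.25 on the IgG arrays, a difference of 1.54 ± 0.37 (limma, adjusted p = 0.0281). Its RBP arrays differed by 1.13, the widest gap within a pair among the 65 genes, and its difference was 2.10 without RBP array 1 and 0.97 without RBP array 2 (limma, adjusted p = 0.0662), with its call also lost without either IgG array.

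Kctd20, an activator of the kinase AKT, had 9.47 and 9.22 on the RBP arrays, against 8.32 and 7.81 on the IgG arrays, a difference of 1.28 ± 0.22 (limma, adjusted p = 0.0108). Kctd5, Kctd2 and Kctd17 form one related group, of which KCTD5 is known to direct CUL3 to G protein beta-gamma subunits. Kctd5 had 8.90 and 8.99 on the RBP arrays, against 8.09 and 7.40 on the IgG arrays, a difference of 1.20 ± 0.25 (limma, adjusted p = 0.0182). Kctd2 had 7.35 and 7.15 on the RBP arrays, against 6.55 and 6.41 on the IgG arrays, a difference of 0.77 ± 0.16 (limma, adjusted p = 0.0177). Kctd17, which targets the cilium regulator trichoplein, had 7.73 and 7.18 on the RBP arrays, against 7.94 and 7.81 on the IgG arrays, a difference of -0.42 ± 0.22 that did not pass (limma, adjusted p = 0.185). The 3 relatives thus had 2 members called higher and 1 with both RBP arrays below the IgG arrays, and the differences were not tested against each other.

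Kctd9 (0.81 ± 0.16), Kctd7 (0.74 ± 0.15), which is mutated in a neuronal ceroid lipofuscinosis, and Kctd18 (0.61 ± 0.14) completed the Kctd genes called higher, with limma's adjusted p of 0.0157, 0.0182 and 0.0276. All of Kctd20, Kctd5, Kctd2, Kctd9, Kctd7 and Kctd18 lost their calls without RBP array 1, and all but Kctd20 also without RBP array 2. Only 2 Kctd genes were therefore called without RBP array 1 and 2 without RBP array 2. The median difference of the class was also unsteady, at 0.09 without RBP array 1, 0.43 without RBP array 2 or IgG array 1 and -0.02 without IgG array 2.

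The Kctd genes for GABA-B receptor subunits gave no call. Kctd12 was bright, at 9.64 and 9.07 on the RBP arrays and 9.22 and 8.99 on the IgG arrays, and its groups overlapped (0.25 ± 0.23, limma, adjusted p = 0.430). Kctd8 (-0.46 ± 0.15), Kctd16 (-0.36 ± 0.15) and Kctd12b (0.00 ± 0.27) lay near or below background, with limma's adjusted p of 0.0676, 0.125 and 0.994. Kctd1 (0.03 ± 0.19) and Kctd15 (-0.39 ± 0.16), repressors of AP-2 transcription factors, and Kctd14 (0.31 ± 0.19) did not pass either (limma, adjusted p = 0.907, 0.122 and 0.252). The 4 Kctd genes at or below background differed by -0.72 to 0.01. Across all classes the genes nearest to the background level were Kctd16 (mean 5.37) and Klhl29 (5.43) above it, and Klhl40 (5.26) and Klhl34 (5.22) below it.

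**Figure D3:**
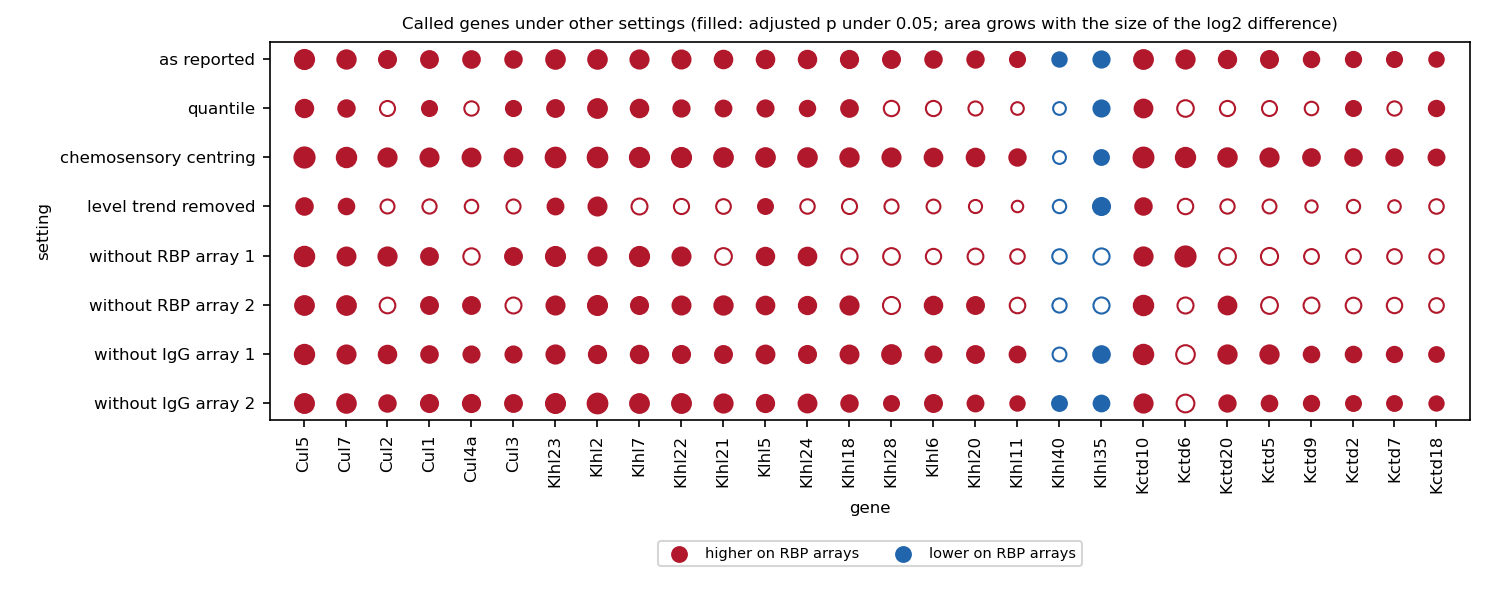
Each column is 1 of the 28 genes other than Ipp and Klhl12 called with all arrays and each row a setting, filled where limma's adjusted p was under 0.05, red for higher and blue for lower on the RBP arrays, with an area that grows with the size of the log2 difference. Open circles gather in the rows without an RBP array, with quantile normalization and with the level trend removed, and 10 of the 28 genes are filled in all 4 rows that leave out an array.

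Of the 28 calls other than Ipp and Klhl12, 10 held without each array in turn, and 0 of the 28 genes changed direction in any of the settings tried. The 10 were Cul1, Cul5, Cul7, Klhl2, Klhl5, Klhl7, Klhl22, Klhl23, Klhl24 and Kctd10. Without an RBP array the variance came from the IgG pair alone, which was the noisier one, with an SD of 0.401 for the difference between its arrays over all genes, against 0.258 for the RBP pair. Among the 65 genes these SDs were 0.288 for the RBP pair and 0.366 for the IgG pair.

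The other parts of the cullin machinery were counted from lists drawn up for this purpose. Every listed gene lay above background except 3 of the other BTB-kelch genes. The counts are to be read against 36.5% higher and 6.54% lower among all genes above background. Many of the listed genes were brighter, and 56.4% of all genes at mean levels of 8 to 9 and 54.1% above 9 were higher. Of 12 genes for neddylation and adaptor exchange 8 were higher and 0 lower, with a median difference of 0.77. Dcun1d2, a co-factor for attaching NEDD8 to cullins, had 7.87 and 8.21 on the RBP arrays, against 6.07 and 6.06 on the IgG arrays, a difference of 1.98 ± 0.17 (limma, adjusted p = 0.00558). Cand1, which swaps adaptors on cullins, had 9.76 and 9.90 on the RBP arrays, against 8.47 and 8.28 on the IgG arrays, a difference of 1.45 ± 0.16 (limma, adjusted p = 0.00558). Uba3 (1.16 ± 0.24) and Nae1 (1.07 ± 0.27), the subunits of the NEDD8-activating enzyme, Cand2 (0.87 ± 0.22) and Dcun1d5 (0.76 ± 0.17) followed, with limma's adjusted p from 0.0176 to 0.0341. Dcun1d2 and Cand1 were called without any 1 of the arrays and with the level trend removed. The count of this list was 3 without RBP array 1, 2 without RBP array 2, 2 with quantile normalization and 2 with the level trend removed. Nae1 differed by 0.68 without IgG array 2.

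The list of the COP9 signalosome, which removes NEDD8, also held Senp8, which is not one of its subunits. Of the 10 listed genes 4 were higher and 0 lower, with a median of 0.55, against 36.5% higher among all genes above background. With quantile normalization or with the level trend removed the list had 1 higher, Senp8, and 1 lower, Cops3. Senp8, which processes NEDD8, had 6.41 and 6.19 on the RBP arrays, against 5.13 and 4.51 on the IgG arrays, a difference of 1.48 ± 0.24 (limma, adjusted p = 0.00968). Both of its IgG values lay below background. Like Ipp, Senp8 passed the background level only through its RBP arrays and so had to differ, and its value is a description. The signalosome subunits Gps1 (0.77 ± 0.15), Cops7b (0.75 ± 0.15) and Cops8 (0.67 ± 0.16) were the others, with limma's adjusted p from 0.0150 to 0.0283, and without RBP array 1 the count was 0 of 10 by limma, with 1 without RBP array 2. Of 9 RING and linker subunits 4 were higher and 1 lower, with 2 higher and 2 lower under quantile normalization and 0 higher and 2 lower by limma with the level trend removed. Anapc2, the cullin-like subunit of the anaphase-promoting complex, differed by 1.39 ± 0.18, the CUL4 linker Ddb1 by 0.87 ± 0.15, the CUL5 RING protein Rnf7 by 0.85 ± 0.18 and the elongin Eloc by 0.73 ± 0.17, with limma's adjusted p from 0.00613 to 0.0262. Skp1, the linker between CUL1 and F-box proteins, was lower, with 9.24 and 9.13 on the RBP arrays, against 10.16 and 9.80 on the IgG arrays, a difference of -0.80 ± 0.18 (limma, adjusted p = 0.0233). Its call was lost after centring on the chemosensory genes and without either RBP array (limma, adjusted p up to 0.144), and that list held 1 higher gene without RBP array 1 and 1 without RBP array 2.

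BTB adaptors whose symbols lie outside the Klhl and Kctd series were counted in 2 further lists. Of 12 other BTB-kelch genes 6 were higher and 0 lower, with a median of 0.93. Kbtbd8, an adaptor known from neural crest specification, had 7.52 and 7.88 on the RBP arrays, against 6.30 and 5.37 on the IgG arrays, a difference of 1.86 ± 0.32 (limma, adjusted p = 0.0113). Kbtbd7 (1.53 ± 0.33), Enc1 (1.34 ± 0.22), Kbtbd2 (1.16 ± 0.19), Keap1, the sensor that degrades the antioxidant factor NRF2 (1.14 ± 0.17), and Lztr1, which targets RAS proteins (1.09 ± 0.20), passed with limma's adjusted p from 0.00770 to 0.0206. Of 15 other BTB adaptors 9 were higher and 0 lower, with a median of 1.0. Rhobtb3 (1.35 ± 0.16), Shkbp1 (1.29 ± 0.17), Btbd10 (1.29 ± 0.27), Ankfy1 (1.27 ± 0.19), Spopl (1.21 ± 0.20) and Spop (1.18 ± 0.19), the last 2 being MATH-BTB adaptors, had the largest differences, with limma's adjusted p from 0.00568 to 0.0196. The BTB-kelch list had 1 higher gene when RBP array 1 was left out, 4 when RBP array 2 was left out and 3 with quantile normalization, and the second list had 3, 4 and 4. With the level trend removed each had 1 higher, and the second list also had 1 lower.

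Of 18 genes for substrates and partners of these adaptors, 14 were higher and 0 lower, with a median of 0.80. Hif1a, the substrate of the CUL2 ligase, had 10.15 and 10.43 on the RBP arrays, against 8.88 and 8.99 on the IgG arrays, a difference of 1.36 ± 0.17 (limma, adjusted p = 0.00585). Dapk1 (1.20 ± 0.14), a KLHL20 substrate, Wnk1 (1.09 ± 0.15), one of the WNK kinases that KLHL2 and KLHL3 degrade, Acly (1.06 ± 0.15), a KLHL25 substrate, Pef1 (1.02 ± 0.15), a calcium-binding partner of KLHL12, and Aurkb (0.86 ± 0.14), moved by KLHL9, KLHL13 and KLHL21, passed with limma's adjusted p from 0.00570 to 0.0104. Wnk1 turned to -0.28 (limma, adjusted p = 0.555) when all its probe sets were averaged. The list had 3 higher genes without RBP array 1, 3 without RBP array 2, 5 with quantile normalization and 2 with the level trend removed. As a family of adaptors for another cullin, the F-box genes had 25 of 71 higher (35.2%) and 5 lower (7.04%) with a median of 0.19, against 23.8% and 6.54% of all genes. They had 8 higher without RBP array 1 or RBP array 2, 8 with quantile normalization, and 6 higher and 1 lower with the level trend removed.

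**Figure D4:**
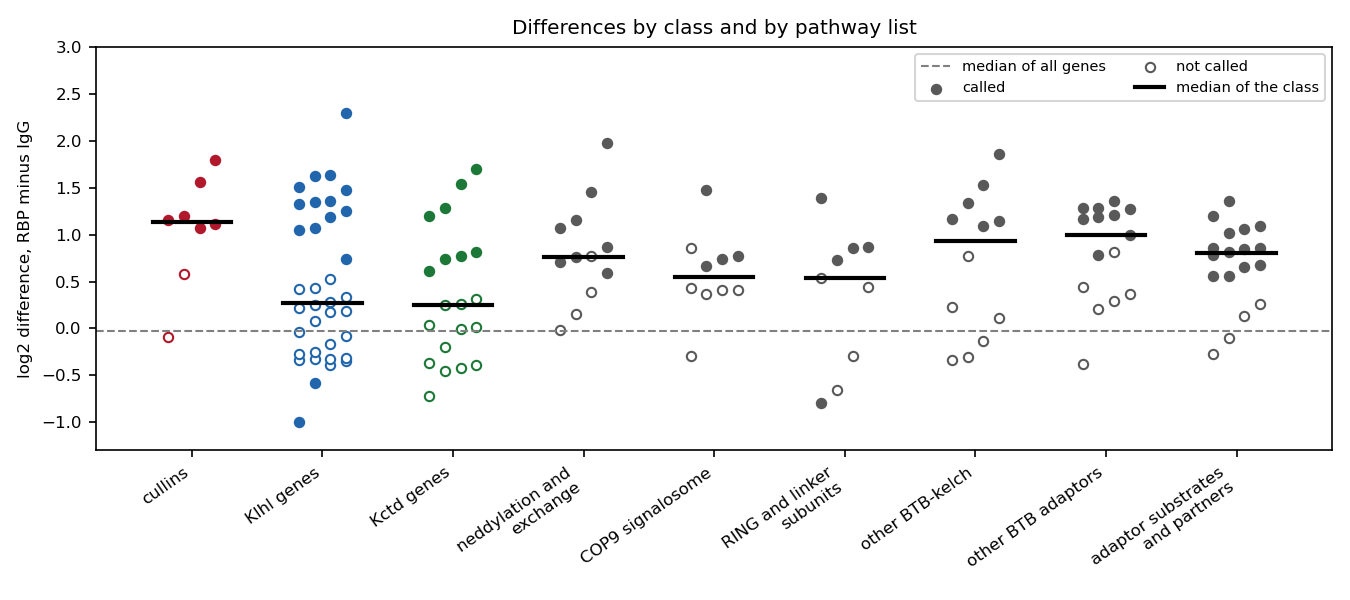
Log2 difference, RBP minus IgG (y axis), of each gene in the 3 classes (coloured) and in the 6 lists of related genes (grey), filled where called, with a bar at the median of each and a dashed line at the median of all genes (-0.02). Ipp is not drawn; the cullins have the highest median, at 1.14.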

How the data were processed

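Affymetrix whole-transcript gene arrays measured immunoprecipitated RNA in 4 samples. The authors deposited log2 levels per probe set, and the submitters' processing notes name RMA and affy, without versions; the sources used here give no background step or filter, and the log2 scale was read from the values (1.83 to 13.87). The platform annotation gave 1 symbol for 21789 of the 35556 probe sets, several for 1621 and none for 12146, and 21698 matched the RefSeq table of GRCm38.p6 by Entrez identifier, which changed 0 symbols. All columns were used. Groups came from sample titles.

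Differences, RBP minus IgG, were fitted with limma 3.58.1 under R 4.3.3 (lmFit, eBayes, two-sided, Benjamini-Hochberg over 19938 genes, each by its brightest probe set). Residual degrees of freedom were 2 and prior degrees of freedom 3.76. The fit was tested on simulated data. No filter on level was set. Alternatives were quantile normalization, centring on the chemosensory receptor genes, removal of the loess trend on level (span 0.3), a filter at the background level, the mean over probe sets, a replicate block, trend and robust options, a 2-fold rule and leaving out each array.

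Named were all cullins, Ipp, Klhl12, called members and members above background, with up to 6 called genes per list of related genes; others are given by range, with a few singled out after their values were seen. Members, lists and tests were chosen with earlier results of these data known. Summed marker levels are log2 of the sum of linear values.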

Additional observations from a re-analysis of the deposited data

How the results depend on the processing

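Quantile normalization gave 2207 higher and 553 lower of all genes, 17 higher of the 65 and 3 higher of the Kctd genes, with medians of 0.73 for cullins, 0.39 for Klhl, 0.35 for Kctd and 0.16 for all genes. Ipp and Klhl12 were counted among the higher genes of the 65. Without them the counts were 15 of 63 with quantile normalization and 6 of 63 with the level trend removed, the latter with 3 of 35 Klhl genes. Centring on the chemosensory genes gave 7074 higher and 317 lower of all genes, and 1 lower of the 65, a Klhl gene. Medians were then 0.65 for the 65, 1.45 for cullins, 0.58 for Klhl, 0.57 for Kctd and 0.29 for all genes. Centring adds the same amount to every gene's difference, so an equal rise in each class was fixed in advance. With the level trend removed there were 1122 higher and 1014 lower of all genes, 8 higher of the 65 with 2 cullins, 4 Klhl and 1 Kctd gene, 1 Kctd gene lower, and medians of 0.22 for the 65, 0.50 for cullins, 0.18 for Klhl and 0.0005 for all genes. Restriction to genes above background kept 49 of the 65, Ipp among them, and gave 1 lower, a Klhl gene. Medians were then 0.77 for the 49, 0.89 for 24 Klhl genes, 0.46 for 16 Kctd genes and 0.40 for 12828 genes in all. This filter changes no gene's difference, so the medians moved only because dim genes were dropped. The 2-fold rule gave 2690 higher and 246 lower of all genes, 0 lower among Klhl genes and the 65, and 4 higher among Kctd genes.

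Leaving out each array gave 1724 to 5153 higher and 99 to 2905 lower of all genes, 15 to 29 higher and 0 to 4 lower of the 65, 4 to 7 cullins, 7 to 14 Klhl and 2 to 8 Kctd genes higher, and 0 to 3 Klhl and 0 to 1 Kctd genes lower. Medians ran from 0.33 to 0.47 for the 65, 1.03 to 1.20 for cullins, 0.295 to 0.373 for Klhl, -0.022 to 0.43 for Kctd and -0.039 to 0.035 for all genes. The lone array of a group is then assumed to vary like the other group. With the replicate block 2199 of all genes and 1 Kctd gene were lower, and 30 of the 65 were higher. The difference between same-numbered arrays correlated at 0.26 across genes between the groups, with only 2 pairs and no label that ties them. Wnk1 turned to -0.28 with the mean over probe sets. Averaging probe sets and the trend and robust options changed no call among the 50 members followed. The causes of these changes were not tested, and levels near background limit what the dim genes can show.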
